A study of Mus musculus with 1457 samples.

Results

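The genes described here are Phox2a, Th, Dbh, Ret, Isl1, Hand2, Gata3 and Ngfr, 8 genes known from sympathetic neurons and the neural crest. They were taken by gene symbol from both deposited count tables, 8 of the 36131 genes that both tables hold whole, and followed through every cell of the series, from the mouse aorta-gonad-mesonephros (AGM) region, in 19 sort groups. The question was whether any sorted cell carried several of these genes together, as a sympathetic neuron would, or whether reads of Ret, Isl1 or Gata3 stood alone in endothelial, hemogenic and mesenchymal sorts. The label sympathetic and neural crest genes was not borne out as a cell type: no cell held reads of more than 1 of Phox2a, Th and Dbh, and Dbh had 0 reads in the series. The 3 abundant genes, Gata3, Isl1 and Ret, were instead read mostly in cells that also held reads of endothelial genes.

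The AGM is the part of the embryo around the dorsal aorta in which blood stem cells arise from a specialised, hemogenic endothelium. Neural crest cells that settle beside the same aorta form the sympathetic ganglia and the adrenal medulla. In those cells Phox2a, a paired homeodomain factor, acts with Hand2, Gata3 and Isl1 to switch on Th, the rate-limiting enzyme of catecholamine synthesis, and Dbh, which turns dopamine into noradrenaline. Ret, a receptor tyrosine kinase for ligands of the GDNF family, and Ngfr, the low-affinity neurotrophin receptor p75, are surface receptors of neural crest derivatives. None of the transcription factors or receptors is restricted to neurons: Ret and Gata3 are also known from the nephric duct, Isl1 from the second heart field and pancreatic islets, and Hand2 from heart and limb mesenchyme.

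All embryos were of the ICR strain, and every gate was TER119- CD45-. From Gfi1:Tomato/WT Gfi1b:GFP/WT reporter embryos came endothelium (Endo; CD41- KIT- CDH5+, without either reporter), hemogenic endothelium (HE; the same gate with GFI1+ GFI1b-), cells in endothelial-to-hematopoietic transition (EHT; as HE but CD41+ KIT+) and the cells of intra-aortic hematopoietic clusters (IAHC; as EHT but also GFI1b+). At E10.5 these groups held 74, 95, 41 and 42 cells, and at E11.5 Endo held 16, HE 40 and IAHC 22 cells. A further 41 Endo, 43 HE and 42 EHT cells carry E11.5 in the title and E10.5 in the stage field. They were kept as groups of unclear stage. HE of Gfi1:Tomato/Tomato Gfi1b:GFP/GFP embryos, the Gfi1/Gfi1b knockout, gave 42 cells at E10.5. From Runx1b:RFP/WT embryos at E10.5 came 53 Endo cells, HE cells (CDH5+ RUNX1b+), 17.98% of the cells of the series, and mesenchymal cells from around the aorta (Mes; CDH5- RUNX1b+), 7.34% of the series. Runx1b:RFP/RFP embryos gave 91 Mes cells, the Runx1b knockout. A further set of HE cells, 19.01% of the series, is titled Runx1b knockout while its genotype field reads Runx1b:RFP/WT, so it is called the titled knockout. From Gfi1:Tomato/WT embryos at E10.5 came 14 ACE- GFI1- cells labelled as endothelium, ACE+ GFI1- cells (7.96% of the series) and 39 ACE+ GFI1+ cells labelled as hemogenic endothelium. ACE is angiotensin-converting enzyme, a surface marker. In these lines the reporter replaces the gene it reports, so the controls carry 1 altered allele too.

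Each library was 1 cell, read by Smart-seq2, a full-length method without molecular identifiers. The labels name no embryo, so each group counts as 1 sample and its cells are not replicates. Unless a cell is named, a level is the total of a gene's reads in a group for every 1000000 reads of that group (CPM), with an exact 95% Poisson interval. A share is the percent of cells with at least 1 read, with an exact 95% Clopper-Pearson interval. Both intervals cover counting error only and say nothing of the spread between embryos. For a count of 0 the limit given is 3 reads or 3 cells over the total, which lies below the upper end of the exact interval. The median cell had 598000 reads, with a range from 12 to 5652968, and 42 cells had under 50000. A cell is called endothelial-gene positive when it held reads of at least 10 of 15 endothelial genes such as Cdh5, Pecam1 and Kdr, which was so for 70.9% of cells. Endothelial-gene positive cells were 86.8% to 98.6% of each Endo group and 3.74% and 14.3% of the Mes groups, but only 50% of HE of the Runx1b line and 36.4% of IAHC at E11.5. The summed level of 9 erythroid genes ran from 3.16 CPM in ACE- GFI1- cells to 479155 CPM in IAHC at E11.5.

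Th, Dbh, Isl1 and Gata3 lie on different stretches of GRCm38, all as protein-coding genes. Th spans chromosome 7 from 142892752 to 142931128 on the minus strand, Dbh chromosome 2 from 27165233 to 27183200 on the plus strand, Isl1 chromosome 13 from 116298281 to 116309689 on the minus strand, and Gata3 chromosome 2 from 9857078 to 9890034 on the minus strand. The 150 bases before their RefSeq start sites (GRCm38.p6) are shown because these genes stand at the extremes of the data: Dbh was never read, Th in 5 cells, Isl1 in 41.7% and Gata3 in 58.3% of cells. The windows are chr7:142899996-142900145 (minus strand) for Th, chr2:27165357-27165506 (plus strand) for Dbh, chr13:116309689-116309838 (minus strand) for Isl1 and chr2:9878601-9878750 (minus strand) for Gata3. Capitals mark the cAMP response element TGACGTCA or its first 7 letters TGACGTC, the homeodomain core ATTA, the E-box CAGCTG and the GATA motif TGATAA. In Isl1, TGATAA and an ATTA on the other strand overlap as TGATAAT.
Th promoter: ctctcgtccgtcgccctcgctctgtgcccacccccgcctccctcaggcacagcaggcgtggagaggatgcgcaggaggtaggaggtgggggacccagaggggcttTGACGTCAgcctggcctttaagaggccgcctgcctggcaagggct
Dbh promoter: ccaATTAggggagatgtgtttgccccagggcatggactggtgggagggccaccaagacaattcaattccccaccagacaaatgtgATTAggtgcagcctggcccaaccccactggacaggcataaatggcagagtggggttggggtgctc
Isl1 promoter: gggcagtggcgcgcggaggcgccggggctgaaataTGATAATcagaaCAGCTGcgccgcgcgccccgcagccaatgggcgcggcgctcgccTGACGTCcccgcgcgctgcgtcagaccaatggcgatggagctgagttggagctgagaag
Gata3 promoter: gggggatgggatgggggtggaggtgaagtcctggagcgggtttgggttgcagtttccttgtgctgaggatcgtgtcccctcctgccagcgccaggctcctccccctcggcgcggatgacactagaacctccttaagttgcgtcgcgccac
The window of Th holds the full cAMP response element, beginning 45 bases before the start site. That of Dbh holds ATTA motifs, that of Isl1 holds the GATA motif with the overlapping homeodomain core, the E-box and the shorter cAMP element, and that of Gata3 holds none of these letters. Over 250 bases before each start and on both strands, TGACGTCA was found in 1.546% of 32851 promoters, TGACGTC in 2.782%, ATTA in 54.92%, CAGCTG in 13% and TGATAA in 7.942%. The RUNX motifs TGTGGT (14.05% of promoters) and TGCGGT (5.099%) were found in 0 of the 7 member promoters that could be matched, with Ret named only. Gata3 and Isl1 had 70% and 71.2% of G and C in those 250 bases, against 64.4% for Th, 53.2% for Dbh and a median of 52.4% for all promoters.

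Among the genes that define a noradrenergic cell, Dbh was at 0 reads, with limits of 0.206% of cells and 0.00287 CPM. The upper ends of its exact intervals were 0.253% and 0.00353 CPM. Th was read in 5 cells (0.343%, interval 0.112 to 0.799). Phox2a had 50 reads in 4 cells (0.275%, interval 0.0749 to 0.701). No cell carried both Phox2a and Th. These counts leave 9 cells of the series with any of the 3 genes, spread over 6 of the 19 groups. Phox2a overlaps Inppl1 on the opposite strand of chromosome 7 (101818313 to 101822726), and the strand setting of the counting is not given in the sources used here, so its few reads cannot be assigned to Phox2a alone.

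A cell was called multi-member when it held reads of at least 3 of the 8 genes with at least 1 of them Phox2a, Th or Dbh, and 5 cells met this. They were 2 Mes cells of the Runx1b knockout, 1 HE cell of the Gfi1 line at E11.5, 1 at E10.5 and 1 ACE+ GFI1+ cell. Leaving out the requirement of Phox2a, Th or Dbh raised the count from 0.343% to 18.1% of cells. At 10 reads or more per gene the count was 3. The other genes of the sympathetic list did not accompany them: outside 4 cells described next, none of the other 1453 cells held reads of more than 4 of 17 further sympathetic genes, a list with Ddc, Slc6a2 and Chga. Of the neural crest regulators, Sox10 was read in 2 cells and Foxd3 in 3. Peripherin (Prph), an intermediate filament of peripheral neurons, was read in 7 cells.

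Th was read in 4 Mes cells of the Runx1b knockout at 5.59, 63.8, 151.8 and 266.2 CPM, the lowest from 4 reads. The same 4 cells held Gcg, the gene for glucagon, at 38701 to 80995 CPM. Gcg stayed at or below 18.2 CPM in the other 1453 cells, of which 5 had any Gcg read. The cell with the lowest Th had the highest Gcg. Beside Gcg they read Pyy, a gut and islet peptide, at 6301 to 17069 CPM, Slc38a5, an amino acid transporter of alpha cells, at 11955 to 21884 CPM, and 9 to 12 of 12 endocrine pancreas genes, a list chosen after these values were seen. That list includes Pax6, a regulator of glucagon-producing cells, at 305.3 to 546.3 CPM. Isl1, a regulator of islet cells too, was in all 4 at 294.9, 663.4, 740 and 1762 CPM. Their granule genes were present as well, with Chga at 114.9 to 762.6 CPM and Scg3 at 593.5 to 1107.9 CPM, while Phox2a, Dbh, Slc6a2 and Slc18a2 were at 0. They read 5 to 10 of the 17 further sympathetic genes, through secretory granule genes shared by endocrine and sympathetic cells. The 4 cells held 36.5% of the Isl1 reads of their group, and without them Isl1 in that group was 51.9 CPM instead of 78.8.

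**Figure D1:**
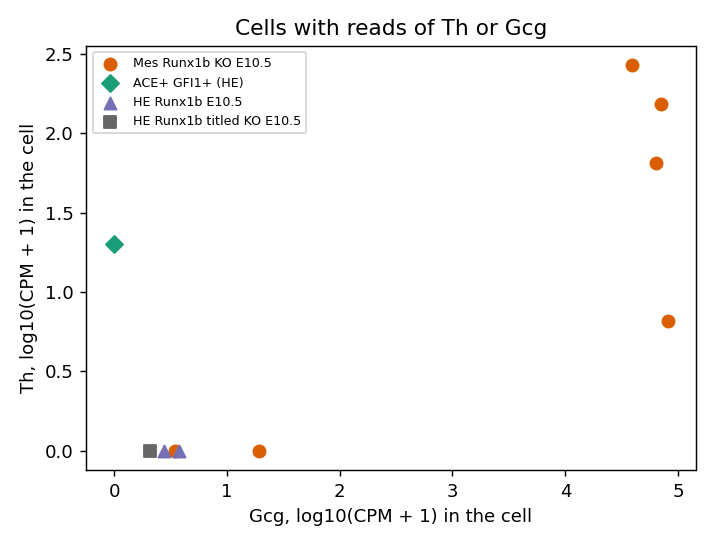
Level of Th (y axis) against level of Gcg (x axis), both as log10(CPM + 1), in each cell with reads of either gene; colours and shapes give the sort group. The 4 Mes cells of the Runx1b knockout with Gcg at 38701 CPM or more are 4 of the 5 cells with Th, and the fifth, an ACE+ GFI1+ cell, has no Gcg.

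The fifth Th cell was ACE+ GFI1+ (22 reads, 19 CPM) and read 15 of 15 endothelial genes, with Isl1 at 98.5 and Gata3 at 133.03 CPM. The 4 Phox2a cells did not resemble each other. An HE cell at E11.5 (18 reads, 6.45 CPM) and an HE cell at E10.5 (6 reads, 11.52 CPM) of the Gfi1 line both read 15 of 15 endothelial genes, with Ret at 98.5 and 195.9 CPM and Isl1 at 180.6 and 276.6 CPM. An HE cell of the Runx1b line (8 reads, 16.5 CPM) read 7 of 15 mesenchymal genes, with Col1a1, a fibrillar collagen, at 6437 CPM. A Mes cell of the Runx1b:RFP/WT line (18 reads, 54.5 CPM) read 6 of 8 coelomic and adrenocortical genes, with Nr5a1, the steroidogenic factor of adrenal cortex and gonad, at 908.3 CPM. None of these 4 held more than 3 of the 17 further sympathetic genes. Apart from Th itself, 8 genes were read in 3 of the 5 multi-member cells and in at most 4.82% of other cells: Ttr, Rbp4, Disp2, Pnmal2, Cadps, Maob, Tcp11 and Spire2.

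Cells with many pan-neuronal genes were few. Only 7 cells read at least 7 of 14 pan-neuronal genes such as Tubb3, Nefm and Dcx. None of the 7 held Phox2a or Dbh. The 2 with Th were glucagon cells. Of the other 5, 2 held none of the 8 genes, 1 held Ngfr alone at 260.6 CPM, 1 held Hand2 at 17.4 and Gata3 at 19.4 CPM, and 1 Mes cell of the Runx1b knockout held Isl1 at 181.9, Gata3 at 248.3 and Ngfr at 2.14 CPM. That last cell read 11 of 14 pan-neuronal genes and 10 of 15 mesenchymal genes. By contrast, some neuronal genes were widespread. Map1b, a microtubule protein, was read in 64.4% of cells, Stmn2 in 46.5% and Gap43, a growth cone protein, in 43.9%. Slc18a2, the vesicular monoamine transporter that loads noradrenaline into granules, was read in 67.2%.

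Gata3 was the most frequent of the 8 genes, read in 58.3% of cells (interval 55.7 to 60.8) with a median of 95.7 CPM in those cells. Isl1 followed in 41.7% (interval 39.1 to 44.2) with a median of 110 CPM, and Ret in 21.5% (interval 19.4 to 23.7) with a median of 82.8 CPM. Hand2 was read in 8.37% of cells at a median of 16.3 CPM, and Ngfr in 94 (6.45%) at a median of 51.5 CPM. Per kilobase of exon, so that genes of different length can be set side by side, Gata3 stood at 18.5, Isl1 at 16.3, Ret at 4.98, Ngfr at 1.47 and Hand2 at 0.554 CPM per kilobase in HE of the Gfi1 line at E10.5. In the ACE+ GFI1- cells the order was the same down to Hand2, at 37.04, 34.1, 14.8, 4.09 and 0.336 CPM per kilobase. In HE of the Runx1b line Ngfr (2.03) came before Ret (1.51) and Hand2 (1.49). Gata3 overlaps 2 genes on the opposite strand and Hand2 overlaps Hand2os1, with the same limit as for Phox2a.

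**Figure D2:**
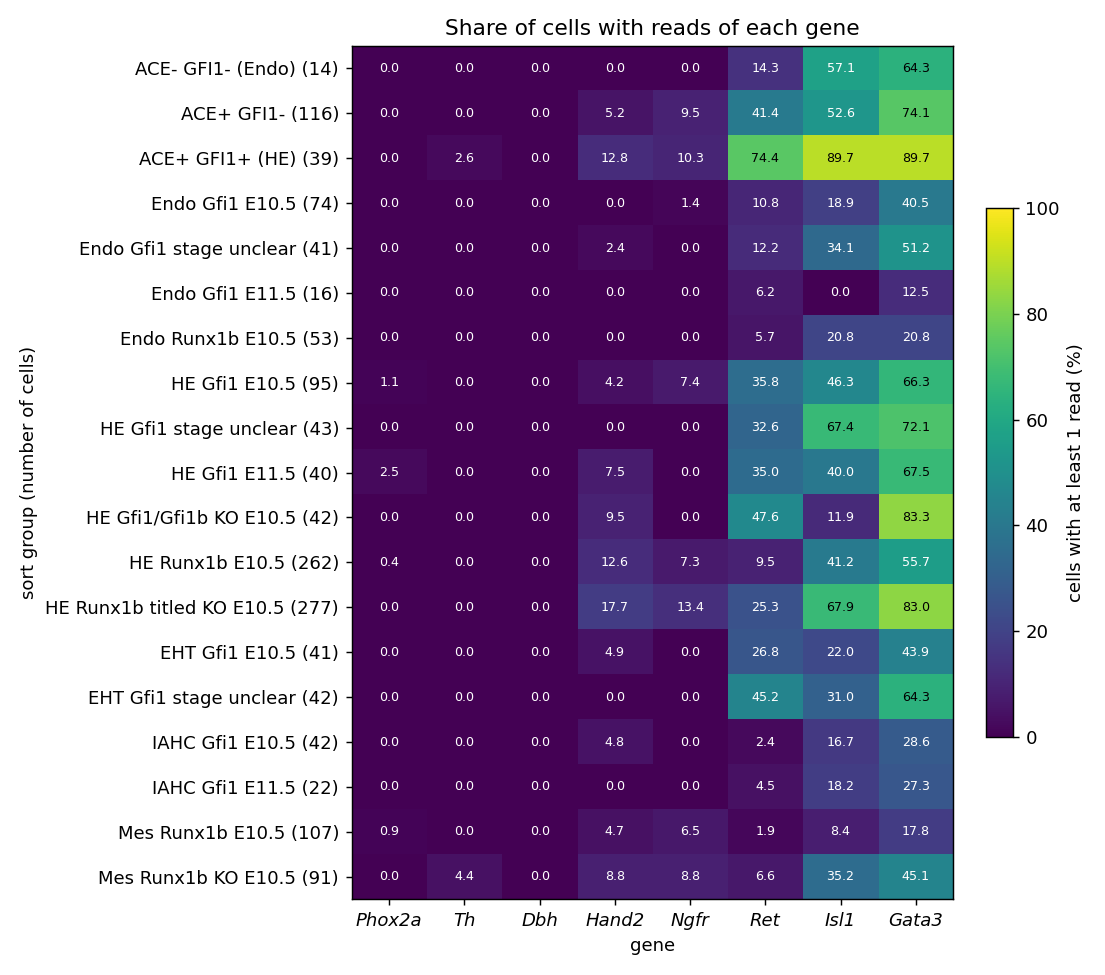
Percent of cells with at least 1 read of each gene (columns) in each of the 19 sort groups (rows, number of cells in brackets); colour runs from 0 to 100% and each cell of the grid prints its percent. Gata3, Isl1 and Ret are highest in ACE+ GFI1+ cells, with 89.7%, 89.7% and 74.4%, while Phox2a and Th reach at most 2.5% and 4.40% of a group and Dbh 0%.

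The cells with Ret, Isl1 or Gata3 were largely endothelial by their other genes. At least 10 of 15 endothelial genes were read in 98.1% of the cells with Ret, 90.3% of those with Isl1 and 88.3% of those with Gata3, against 70.9% of all cells. Cells with Hand2 (74.6%) and Ngfr (69 of 94, 73.4%) lay close to the share of the whole series. In endothelial-gene positive cells Ret stood at 39.9 CPM (interval 39.4 to 40.3), Isl1 at 78.1 and Gata3 at 88.3. In the other cells with at least 50000 reads Ret was at 5.11 (interval 4.85 to 5.38), in 6 cells, Isl1 at 19.4 and Gata3 at 28.98. Hand2 was at 1.98 against 1.09 CPM and Ngfr at 4.73 against 5.12 CPM in the same 2 sets. Of these 5 genes Ret thus differed most between them and Ngfr least.

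A lone cell held reads of exactly 1 of the 8 genes. Such cells made up 23.5% of the series: lone Gata3 cells 14.0014%, 77 lone Isl1, 35 lone Ret, 15 lone Ngfr, 11 lone Hand2 cells and 1 lone Phox2a cell. Cells with none of the genes made up 30.2%, cells with 2 of them 28.1% and cells with 3 of them 15.9%, and 27 and 6 cells had 4 and 5. Of the lone Ret cells 34 of 35 were endothelial-gene positive, with Ret at 0.474 to 714.4 CPM and a median of 53.1. Of the lone Isl1 cells 65 of 77 were (median 78.4 CPM), and of the lone Gata3 cells 79.4% (median 61.6 CPM over those with at least 50000 reads). None of these lone Ret, Isl1 or Gata3 cells read 7 or more pan-neuronal genes, and none read more than 3 of the 17 further sympathetic genes.

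The lone cells of the 3 genes differed by gate. In the HE sorts, ACE+ GFI1+ cells included, lone Gata3 cells made up 12.7% of cells, and 37 were lone Isl1 and 22 lone Ret cells. Of these 87.1%, 91.9% and 100% were endothelial-gene positive. In the Endo sorts, ACE- GFI1- cells included, there were 39 lone Gata3, 22 lone Isl1 and 3 lone Ret cells, of which 38, 22 and 3 were endothelial-gene positive. In the Mes sorts there were 23, 7 and 1, of which 3, 0 and 0 were. The lone Gata3 and Isl1 cells of the Mes sorts read a median of 9 of 15 mesenchymal genes instead. The median lone Gata3 cell had 49 reads of Gata3 in HE, 21 in Endo and 44 in Mes, so most of these cells had more than 1 read. Without molecular identifiers, these reads cannot be counted as separate molecules. Lone Ngfr cells were the exception, with 4 of 15 endothelial-gene positive and a median of 7 mesenchymal genes.

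Gata3, Isl1 and Ret tended to be read in the same cells. Gata3 was read in 83.03% of cells with Isl1 and 40.6% of cells without it, and in 83.1% of cells with Ret and 51.5% of those without. Isl1 was read in 56.9% of cells with Ret and 37.5% of those without. Within the HE sorts the share of cells with Gata3 was 87.3% of the cells with Isl1 and 52.5% of those without. Within the Endo sorts it was 53.2% of 47 cells and 31.8% of the rest. Single sort groups did not all go this way. Of the 16 groups with at least 5 cells on each side, Gata3 was read more often with Isl1 than without it in 14 and less often in 2, Endo of the Gfi1 line at E10.5 (35.7% against 41.7%) and HE of the Gfi1/Gfi1b knockout (80% against 83.8%). With Ret, Gata3 was read more often in 11 of 13 groups and less often in 2, HE at E11.5 (57.1% against 73.1%) and HE of unclear stage, and Isl1 was read more often in 8 of 13 and less often in 5. The correlation of log2(CPM + 1) over the 1415 cells with at least 50000 reads was 0.43 for Gata3 with Isl1, 0.25 for Gata3 with Ret and 0.11 for Isl1 with Ret. These are descriptions over cells that share sort groups, with no test.

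**Figure D3:**
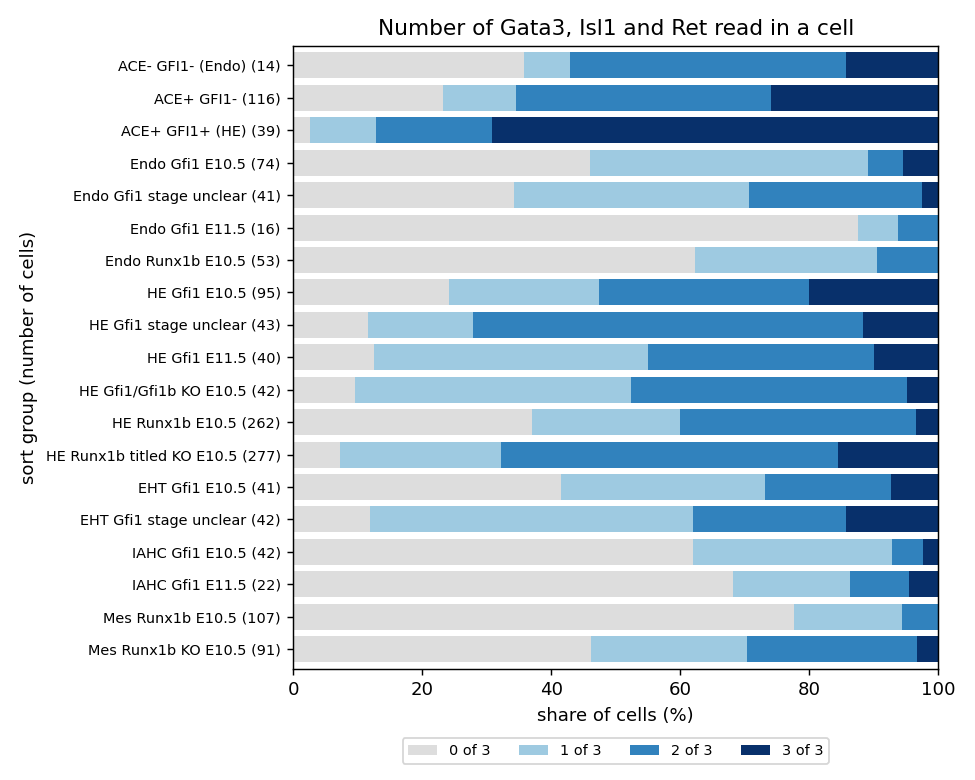
Share of cells (x axis, percent) with reads of 0, 1, 2 or all 3 of Gata3, Isl1 and Ret in each sort group (rows, number of cells in brackets); darker blue means more of the 3 genes. All 3 were read in 69.2% of the ACE+ GFI1+ cells, 3.54% of the cells of the Endo sorts together and 0 cells of the Endo group of the Runx1b line.

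The number of these 3 genes in a cell went with its arterial genes. Over the cells of at least 50000 reads with 0, 1, 2 and 3 of them, 37.4%, 79.9%, 90.9% and 98.8% were endothelial-gene positive. The median summed level of 10 arterial genes, such as the connexins Gja5 and Gja4 and the Notch ligand Dll4, was 191.4, 1583, 6149.5 and 6996 CPM. Within the Endo sorts alone (89, 63, 27 and 7 cells), where nearly all cells were endothelial, the arterial sum was 181.7, 691.3, 3694 and 4741 CPM, and a sum of 5 venous genes such as Nr2f2 and Ephb4 was 1716, 1254.8, 388.3 and 217.3 CPM. Both lists were chosen after values of these data were seen. Median reads per cell were 611450, 591752, 598034 and 674738 in the 4 sets of the series. In the 4 sets of the Endo sorts they were 607114, 580146, 662664 and 648518. The part of depth in the result was not tested. The median cell of each set of the whole series read 0 of 12 nephric duct genes and 0 of 12 neural crest and glial genes, and 1, 1, 1 and 2 of the 17 further sympathetic genes.

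By Pearson r of log2(CPM + 1) over those 1415 cells, the genes most like Gata3 were Gja5 (0.62), Gja4 (0.59) and Mecom (0.56), a zinc finger factor of arterial endothelium and blood stem cells. Those most like Isl1 were Htra1 (0.52), a secreted protease, Gja5 (0.52) and Ltbp4 (0.50), a matrix protein that binds latent TGF-beta. Those most like Ret were Procr (0.38), the endothelial protein C receptor, Vwf (0.37), the clotting factor of endothelium, and Gja4 (0.36). Th was most like Dbpht2 (0.91), Neurod1 (0.91) and Kcnk16 (0.90), each shared only by the 4 glucagon cells. Phox2a shared 1 cell with each of its nearest genes, and for Hand2 and Ngfr no gene reached 0.3. In none of these lists was a noradrenergic gene nearest to a member.

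By group, Gata3 was highest in the ACE+ GFI1- cells at 147.3 CPM (interval 144.2 to 150.6), then ACE+ GFI1+ cells at 131.7 and HE of unclear stage at 116.9. HE of the Gfi1 line held 107.5 CPM at E11.5 and 73.5 at E10.5, HE of the Runx1b line 94.1, its titled knockout 98.1 and the Gfi1/Gfi1b knockout 87.8. EHT cells held 14.3 at E10.5 and 42.1 in the group of unclear stage, and IAHC 10.3 at E10.5 and 8.12 at E11.5. Hemogenic sorts were thus at 73.5 CPM or more and the blood-forming gates lower. Endo groups held 63.3 (unclear stage), 29.8 (Gfi1 line, E10.5), 22.2 (ACE- GFI1-), 8.61 (Runx1b line) and 2.49 (Gfi1 line, E11.5). Mes cells held 77.2 in the Runx1b knockout and 25.8 in Runx1b:RFP/WT. Among neighbours in this order, the counting intervals overlapped between the Mes knockout (74.8 to 79.6) and HE at E10.5 (71.5 to 75.6) but not between the titled knockout (96.7 to 99.5) and HE of the Runx1b line (92.6 to 95.6).

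Isl1 was highest in HE of unclear stage at 179.3 CPM (interval 172.99 to 185.7), where 1 cell reached 2045 CPM, and in ACE+ GFI1+ (149.7) and ACE+ GFI1- cells (135.2). It stood at 91.6 in the titled knockout, 74.8 in HE of the Gfi1 line at E11.5, 69.04 in HE of the Runx1b line and 64.5 in HE of the Gfi1 line at E10.5. The lowest HE group was the Gfi1/Gfi1b knockout at 6.05 CPM, with 5 of 42 cells. Endo groups ran from 0 of 16 cells (Gfi1 line, E11.5, limit 0.0666 CPM) through 6.997 (ACE- GFI1-), 15.8 and 19.7 to 72.6 (unclear stage). Both EHT groups (10.1 and 11.02) and both IAHC groups (8.38 and 10.7) lay low. The Mes groups stood at 78.8 (knockout) and 16.1 CPM. Each HE group other than the knockout thus stood above each Endo group other than that of unclear stage.

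Ret was highest in ACE+ GFI1+ cells at 102.1 CPM (interval 98.6 to 105.8) and ACE+ GFI1- cells at 100.03 (interval 97.4 to 102.7), whose intervals overlap. HE groups ran from 10.2 (Runx1b line) through 29.3 (titled knockout), 33.7 (Gfi1 line, E10.5), 42.5 (Gfi1/Gfi1b knockout) and 50.4 (unclear stage) to 88.7 (Gfi1 line, E11.5). In that last group 1 cell held 46.5% of the Ret reads. EHT cells kept 15.9 and 37.1 CPM, with reads in 11 of 41 and 19 of 42 cells. Endo groups lay between 0.960 and 10.48 CPM. In IAHC Ret was read in 1 of 42 and 1 of 22 cells. Ret in Mes cells was 2.14 CPM in Runx1b:RFP/WT (2 cells) and 30.6 in the knockout (6 of 91 cells).

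Of the sparse genes, Hand2 was at 0 reads in 7 of the 19 groups. It was highest in HE of the Runx1b line at 3.50 CPM (33 cells) and the titled knockout at 3.01 (49 cells). The 3.01 CPM of the Endo group of unclear stage came from 1 cell. Ngfr was at 0 in 11 groups. It reached 14.1 CPM in ACE+ GFI1- cells (11 cells), 10.4 in the titled knockout, 8.40 in ACE+ GFI1+ cells, 7.01 in HE of the Runx1b line and 5.08 in HE of the Gfi1 line at E10.5. In the ACE+ GFI1- group the 15 cells below the endothelial mark held Ngfr at 143.4 CPM and the 89 endothelial-gene positive cells at 6.65, and 1 cell held 45.8% of the reads. Hand2 and Ngfr levels therefore rest on few cells in most groups.

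Splitting each group by the endothelial genes showed where the 3 abundant genes lay. In HE of the Gfi1 line at E10.5 the 78 endothelial-gene positive cells held Ret at 45.04, Isl1 at 86.2 and Gata3 at 98.3 CPM, and the 17 other cells held 0 reads of all 3. In HE of the Runx1b line 50% of the cells fell on each side. Ret was 21.9 CPM in the endothelial-gene positive cells and 0 in the others, Isl1 124.2 and 20.9, and Gata3 157.4 and 38.8. In that sort the other cells thus kept Isl1 and Gata3 but no Ret. In IAHC at E11.5, where the median cell read 8 of 9 erythroid genes, the 8 endothelial-gene positive cells held Isl1 at 33.4, Gata3 at 25.4 and Ret at 21.6 CPM, and the 14 others held 0.

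**Figure D4:**
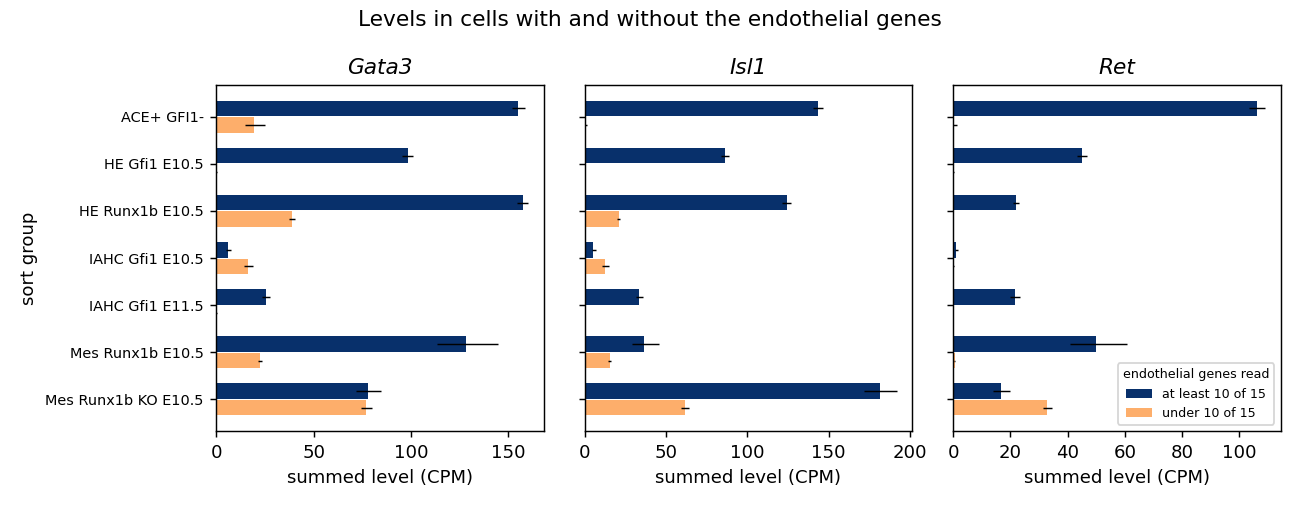
Summed level (x axis, CPM, from 0) of Gata3, Isl1 and Ret in cells with reads of at least 10 of 15 endothelial genes (blue) and of fewer (orange), in 7 sort groups (rows); bars are levels and whiskers exact 95% Poisson intervals, which cover counting error only. In HE of the Runx1b line Ret is 21.9 in the first and 0 in the second; in the Mes knockout Ret is 16.6 and 32.9.

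In the Mes sorts the split went another way. The 13 endothelial-gene positive cells of the knockout held Isl1 at 181.7, Gata3 at 77.9 and Ret at 16.6 CPM, against 61.8, 77.1 and 32.9 in its 75 others. In Runx1b:RFP/WT the 4 such cells held 36.6, 128.5 and 50.1, against 15.4, 22.4 and 0.556 in the others. Only 8 Mes cells held Ret, and they were of several kinds. In 3 cells of the knockout Ret (306.5, 979.7 and 1231.8 CPM) came with Gata3 (271.1, 1037.6 and 836.4 CPM) and 9 or 10 of 12 nephric duct genes. Among these were Pax2 (81.8 to 171.4 CPM) and Lhx1 (129.7 to 271.1 CPM), regulators of the nephric duct, and Wnt9b (94.3 to 150 CPM), a ligand it secretes. These 3 also held Gfra1, the co-receptor of Ret, at 1273.2, 103.1 and 40.9 CPM. Another pair of the knockout were glucagon cells, 1 cell of each genotype read 15 and 13 endothelial genes, and the eighth, of Runx1b:RFP/WT, read 11 mesenchymal genes.

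The gates were compared across 4 sort sets, each with an Endo and an HE sum of cells: the Gfi1 line at E10.5, at E11.5, the Runx1b line and the ACE sorts. This is the only comparison with replication, and it is over sort sets, not embryos. edgeR's quasi-likelihood test with the sort set as a block tested 14553 genes and called 1.4% of them at a Benjamini-Hochberg adjusted p under 0.05, 0.886% higher and 0.515% lower in HE. Of the 8 genes 4 could be tested, Ret, Isl1, Hand2 and Gata3, and 0 were called, while 4 of 4 had an unadjusted p under 0.05, as did 19.4% of all genes tested. DESeq2 called 3 of them (Ret, Gata3 and Hand2) and 17.5% of all genes. The 4 were higher in HE in all 4 sets, and the share of all genes for which this held was not counted. Hand2, at 0 in all 4 Endo sums, passed the filter on low counts through its HE reads alone. Its direction was thus fixed in advance, and neither its p-values nor its recurrence over the sets is separate support. Set by set, without a test, HE of the Gfi1 line at E10.5 exceeded Endo at least 2-fold in 5 of the 6 members with enough reads (17.5% of all genes measured), 5 of 5 at E11.5 (27.9%), 5 of 6 in the Runx1b line (25.1%) and 6 of 6 in the ACE sorts (24.3%). Members at or near 0 in Endo, such as Hand2 and Ngfr, counted as measured through their HE reads alone. Phox2a at E11.5 and Th in the ACE sorts came from 1 HE cell each. Without the top HE cell, Hand2 in the ACE sorts was 1.95-fold higher. In the groups of unclear stage 2 of 4 members were at least 2-fold higher (15.8%), Ret and Isl1, and 1 lower (20.4%), Hand2, whose Endo reads came from 1 cell.

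Ret stood at 6.74 and 33.7 CPM in Endo and HE of the first set, 3.75 and 88.7 in the second, 1.93 and 10.2 in the third and 0.960 and 102.1 in the fourth. Within these sets the lowest HE value of Ret, 10.2 CPM, lay above the highest Endo value, 6.74 CPM, so the sums did not overlap. The Endo group of unclear stage, outside the fit, held Ret at 10.48 CPM. The share of all genes without overlap was not counted. The Endo value of the second set came from 1 cell. The log2 difference was 3.95 (SE 0.84), with an edgeR adjusted p of 0.0907 and a range over the alternatives from 2.45e-07 to 0.229. Gata3 stood at 29.8 and 73.5, 2.49 and 107.5, 8.61 and 94.1, and 22.2 and 131.7 CPM, again without overlap, with 2.49 falling to 0.207 CPM without its top cell. Its log2 difference was 3.22 (SE 0.69), edgeR adjusted p 0.0930, range 7.27e-07 to 0.305. Isl1 stood at 19.7 and 64.5, 0 and 74.8, 15.8 and 69.04, and 6.997 and 149.7 CPM, without overlap within these sets. The Endo group of unclear stage, at 72.6 CPM, lay above the HE values of 64.5 and 69.04 CPM. Of Ret, Gata3 and Isl1, Isl1 had the widest error, with a log2 difference of 3.89 (SE 1.48), edgeR adjusted p 0.235, range 0.0350 to 0.540. Since Isl1 was at 0 in Endo at E11.5, that fitted value depends on the prior count.

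Hand2 was at 0 in all 4 Endo sums and at 1.302, 2.26, 3.50 and 0.778 CPM in HE, edgeR adjusted p 0.136, range 0.00287 to 0.322. Ngfr was not tested; it was at 0.0498, 0, 0 and 0 CPM in Endo and 5.08, 0, 7.01 and 8.40 in HE. Other cell types moved with the gate. The summed level of 9 erythroid genes was 3.16 to 53.02 CPM in Endo and 63.5 to 145306 CPM in HE, and 5 of the 7 that were tested rose, the globin genes Hbb-y and Hba-x among them. The summed level of 15 mesenchymal genes was 0.133 to 28.9 CPM in Endo and 83.9 to 4673 CPM in HE, and 1 of 6 rose. With only the endothelial-gene positive cells of each sum, Ret was called (log2 difference 4.21, edgeR adjusted p 0.0430) among the 2.08% of 14482 genes that were higher, while Gata3 (3.40, adjusted p 0.0604) and Isl1 (4.11, adjusted p 0.148) were not. The log2 differences of the 3 genes were thus as large within endothelial-gene positive cells.

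**Figure D5:**
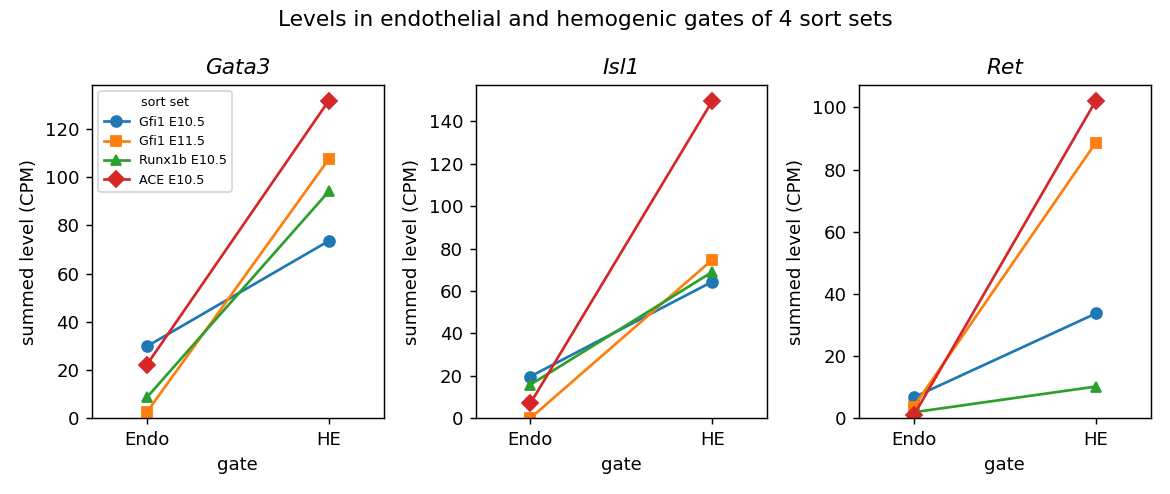
Summed level (y axis, CPM) of Gata3, Isl1 and Ret in the Endo and HE gates; each line joins the 2 sums of 1 sort set, told apart by colour and marker. In each panel the 4 HE values lie above the 4 Endo values, with Ret rising from 1.93 to 10.2 in the Runx1b set and from 0.960 to 102.1 in the ACE set. The groups of unclear stage are not drawn.

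The pathways around the members gave few calls in the same fit. Of the monoamine list, Slc18a2 rose, from 43.4 to 204.3, 37.5 to 347.98, 12.5 to 124.5 and 30.7 to 275.5 CPM in the 4 sets (log2 difference 3.06, SE 0.22, edgeR adjusted p 0.0123). Its adjusted p ran from 1.81e-36 to 0.106 over the alternatives and was over 0.05 when the Runx1b set (0.0726) or the ACE set (0.106) was left out. Slc18a2 was read in 39 of 39 ACE+ GFI1+ cells. In the catecholamine list 10 of 12 genes were tested, with 1 higher and 0 lower and a median log2 difference of 0.24, against 0.09 over all genes. Among those not called were Ddc, the decarboxylase that follows Th, and Gch1, which makes the cofactor of Th. Of 17 further sympathetic genes 6 were tested, and Slc18a2 was the only call. In the pan-neuronal list 0 of 5 and in the neural crest and glial list 0 of 3 tested genes were called.

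Around Ret, 8 of 14 signalling genes were tested, with 0 higher and 1 lower and a median log2 difference of -0.68. Dok4, an adaptor protein that binds activated Ret, fell, from 150.5 to 11.6, 164.04 to 18.8, 172.2 to 16.9 and 257.5 to 36.6 CPM (log2 difference -3.17, SE 0.18, edgeR adjusted p 0.0117, range 1.61e-57 to 0.0762). It lost the call when the Runx1b set (0.0726) or the ACE set (0.0762) was left out. Among genes not called, Gfra2, the co-receptor for neurturin, stood at 0.249 and 5.75, 0 and 6.29, 0 and 4.97, and 0.274 and 42.8 CPM (edgeR adjusted p 0.0738). Spry1, an inhibitor of Ret signalling, and Etv4, a transcription factor that Ret signalling induces, were lower in HE in all 4 sets without a call (edgeR adjusted p 0.0869 and 0.0797). Around Ngfr, 0 of 5 tested genes of 11 were called, and among adrenergic receptors 0 of 3 tested of 9. Of the 10 arterial genes 3 rose and of the 5 venous genes 2 fell. Gja5, the gene most like Gata3, stood at 160.1 and 777.7, 103.7 and 784.8, 58.7 and 903.1, and 60.2 and 2525 CPM (log2 difference 3.69, SE 0.54, edgeR adjusted p 0.0475). That call was lost in 8 of 14 alternatives.

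The remaining comparisons had 1 sample a group and no test, so folds are given beside the share of all measured genes past 2-fold. ACE+ GFI1- cells exceeded ACE- GFI1- cells at least 2-fold in 5 of the 5 measured members (24.8% of genes): Ret 104.2-fold, Isl1 19.3-fold, Gata3 6.65-fold, and Ngfr and Hand2 at least 68.4-fold and 3.84-fold over the limit of 3 reads. The Ret fold is set by 14 reads in 2 ACE- GFI1- cells, and without the cell that held 85.7% of them the level there was 0.146 CPM instead of 0.960. Without the top ACE+ GFI1- cell, Hand2 was at least 1.95-fold and Ngfr at least 37.5-fold higher. ACE+ GFI1+ against ACE+ GFI1- cells differed little in Ret (1.02-fold higher), Isl1 (1.11-fold higher) and Gata3 (1.12-fold lower), with 1 of 6 measured members 2-fold higher (11.7% of genes), Th, from 1 cell. The levels of these 3 genes thus differed far more between ACE- and ACE+ cells than between the ACE+ groups. The shares of cells lay further apart: after thinning every cell to 100000 reads, with 19 ACE+ GFI1- and 2 ACE+ GFI1+ cells too shallow for it, Ret was read in 47.4% of ACE+ GFI1- and 67.6% of ACE+ GFI1+ cells, and Isl1 in 57.7% and 81.1%, against 41.4% and 74.4%, and 52.6% and 89.7%, unthinned. Endothelial-gene positive cells were 76.7% of ACE+ GFI1- and 100% of ACE+ GFI1+ cells. All cells with Ret or Isl1 in both groups were endothelial-gene positive, and the part of this in the shares was not tested.

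Along the path to blood the 3 genes were lower. EHT against HE of the Gfi1 line at E10.5 was 2.12-fold lower for Ret, 6.41-fold for Isl1 and 5.15-fold for Gata3, with 5 of 6 measured members at least 2-fold lower (17.1% of genes). Erythroid genes stood at 43.4 CPM in EHT and 145306 CPM in HE there, and their part in the result was not tested. IAHC against EHT at E10.5 was 28.7-fold lower for Ret, while Isl1 (1.20-fold) and Gata3 (1.38-fold) were lower by less. The IAHC level of Ret came from 1 cell, and Isl1 was 1.27-fold higher in IAHC without the top EHT cell and 2.14-fold lower without the top IAHC cell. Of 4 measured members 1 was at least 2-fold lower (17.6% of genes) and 1, Hand2, higher (12.3%). At E11.5, IAHC against HE was 12.8-fold lower for Ret, 7.003-fold for Isl1 and 13.2-fold for Gata3. There 5 of 5 measured members and 51.4% of all genes were at least 2-fold lower, with a median log2 ratio of -3.68 over the members and -1.04 over all genes. Erythroid genes stood at 479155 CPM in IAHC and 2776 CPM in HE, and their part in the result was not tested. All Ret reads of IAHC came from 1 cell, without the top HE cell Ret was 7.27-fold lower, and without the top IAHC cell Isl1 was 16.2-fold and Gata3 21.96-fold lower. HE at E11.5 against E10.5 was higher for Ret (2.63-fold), Gata3 (1.46-fold) and Isl1 (1.16-fold), with 2 of 6 measured members at least 2-fold higher (21.6% of genes) and 1, Ngfr, lower (24.4%). Without the E11.5 cell that held 46.5% of the Ret reads, Ret was 50.4 CPM there and 1.49-fold higher. Erythroid genes stood at 2776 CPM at E11.5 and 145306 CPM at E10.5, and their part in the result was not tested.

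The knockouts were checked first on their targets. Gfi1 and Gfi1b reads did not disappear in Gfi1/Gfi1b knockout HE, at 218.9 and 91.6 CPM against 55.2 and 52.1 in controls, and Runx1 was at 1.47 CPM in the titled knockout against 17.8 in HE of the Runx1b line, in counts that do not separate the Runx1b isoform. In the Mes sorts Runx1 was 20.1 against 35.3 CPM. In Gfi1/Gfi1b knockout HE, Isl1 was 10.6-fold lower (6.05 against 64.5 CPM), read in 5 of 42 against 44 of 95 cells, or 12.5% against 45.3% of cells thinned to 100000 reads, with 2 and 0 cells left out. Ret (1.26-fold) and Gata3 (1.19-fold) were slightly higher there. Of the 6 measured members 2 were at least 2-fold lower (15.5% of genes). Erythroid genes stood at 35385 CPM in the knockout and 145306 CPM in the controls, and their part in the result was not tested. Isl1 was the only one of the 3 abundant genes past 2-fold here.

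The titled knockout against HE of the Runx1b line held Ret 2.88-fold, Isl1 1.33-fold and Gata3 1.04-fold higher, with 1 of 6 measured members at least 2-fold higher (14.2% of genes) and 1, Phox2a, lower (20.1%). Phox2a had 8 reads there, all in 1 cell of HE of the Runx1b line. Endothelial-gene positive cells were 97.8% of the former and 50% of the latter. Among those cells alone, Ret was 29.7 against 21.9 CPM, while Isl1 (92.8 against 124.2) and Gata3 (99.3 against 157.4) were lower in the titled knockout, so the direction of Isl1 and Gata3 turns with the cells used. Erythroid genes stood at 7925 CPM in the titled knockout and 89044.5 CPM in HE of the Runx1b line, and their part in the result was not tested. The Mes knockout against Runx1b:RFP/WT held Ret 14.3-fold, Isl1 4.91-fold, Hand2 3.37-fold and Gata3 2.99-fold higher, and Ngfr was close (1.04-fold), with 5 of 7 measured members at least 2-fold higher (18.1% of genes) and 1, Phox2a, lower (15%). The 5 include Th, read in the Mes sorts only in the 4 glucagon cells. Phox2a had 18 reads, all in 1 control cell. Those Mes levels rest on few cells: Ret on the 3 nephric duct cells above, whose top cell held 54.3% of the reads, and Isl1 in part on the glucagon cells. Without that top cell Ret was 6.65-fold higher, and without the top control cell Ret was 56.5-fold, Hand2 5.61-fold and Gata3 4.94-fold higher. Erythroid genes stood at 6313 CPM in the Mes knockout and 63856 CPM in its control. Endothelial-gene positive cells were 13 (14.3%) in the Mes knockout and 4 (3.74%) in its control, and the part of either in the result was not tested.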

How the data were processed

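The deposited tables hold raw read counts per gene and cell. Per the submitters' processing notes, build GRCm38 and the tools HTSeq 0.6.1p1, STAR 2.4.2a, R 3.6.2 and bcl2fastq were used, with no role or order given. The strand setting of the counting is not given in the sources used here. Rows were joined on the 36131 genes held whole in both tables. Of the reads of the ACE sorts 10.1% fell outside them, and 92 spike-in rows held 0 reads. Groups came from titles, and 126 cells have conflicting stage labels. No column of cell values was left unused (0 columns). Since each group is 1 sample, the only test was HE against Endo over 8 sums (4 sort sets as a block) in edgeR 4.0.16 (R 4.3.3; filterByExpr by gate, TMM, quasi-likelihood, Benjamini-Hochberg over all genes), with DESeq2 1.42.0 as an alternative. The sort sets share no embryo label, so p-values measure the spread between sets only. The fit was tested on simulated data.

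Named genes were the 8 members, up to 4 genes of each list by summed level, up to 12 genes read in at least 50% of multi-member cells and at most 5% of others, and up to 3 genes per member with r of at least 0.3. Other genes named were chosen after their values were seen. Some list genes count in list totals but are not reported here by name. The members and lists were chosen with earlier results of these data known. Gene spans are from GENCODE M21 and promoters from RefSeq (7 of 8 members matched). Alternatives covered tool, scaling, filter, block, sort sets, depth, thinning and cells used. Python 3.11.15 with numpy 2.4.6, pandas 2.3.3, scipy 1.17.1 and matplotlib 3.10.9 served for counts and plots.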

Additional observations from a re-analysis of the deposited data

Results flagged for a closer look

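Among the 16 sets of 4 sums examined for a sample far from the others (the gap to the nearest value over the whole range, against the 95% critical value of Dixon), 3 stood out. Sets whose 4 sums were all 0 could not be flagged. Where 3 sums are at 0, the ratio is 1 by construction, as for Th and Ngfr below. The chance rate of about 1 in 20 does not apply to such sets. Th in the 4 HE sums gave 1, with 0.713 CPM in the ACE sorts from 1 cell and 0 in the other 3 sums. Isl1 in the 4 HE sums gave 0.879, with 149.7 CPM in the ACE+ GFI1+ cells against 64.46 to 74.8 CPM in the other 3. Ngfr in the 4 Endo sums gave 1, with 0.0498 CPM from 2 reads in the Gfi1 line at E10.5 and 0 in the rest. Of these, only the Isl1 value rests on many cells, 35 of 39.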

How the results depend on the processing

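The count of multi-member cells was 0.343% of cells (5 cells). It was 0.549% with at least 2 members, 0.137% with at least 4, 0.206% with 10 reads needed and 18.1% with no requirement of Phox2a, Th or Dbh. Of the 4 members tested between HE and Endo 0 were called, where 0.886% of all genes tested were called higher in HE. With DESeq2 3 of 4 were called, beside 10.48% of all genes called higher. With no sort set block, so without the pairing of Endo and HE sums by set, 3 of 4 were called (2.32% of all genes). The count was 3 of 3 with thinned cells (4.35%) and 1 of 4 in endothelial-gene positive cells (2.08%). Leaving out any 1 set gave 0.

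Genes higher in HE were 0.886% of those tested. They were 10.48% with DESeq2, 0.467% without scaling factors, 2.32% with no sort set block, 4.35% with thinned cells and 2.08% in endothelial-gene positive cells. Leaving out 1 set gave 0% (without ACE) to 0.522% (without Gfi1 E11.5), with 0.104% without Gfi1 E10.5 and 0.0207% without Runx1b. Genes lower in HE were 0.515%. They were 7.02% with DESeq2, 0.191% with no filter, 0.88% with the cells titled E11.5 added as another set, 2.84% with thinned cells and 1.36% in endothelial-gene positive cells. Leaving out 1 set gave 0% (without Runx1b or ACE) to 0.373% (without Gfi1 E11.5), with 0.0346% without Gfi1 E10.5. The cause was not tested.

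No direction of Ret, Isl1, Hand2 or Gata3 between HE and Endo reversed in the fits run. By mean CPM per cell in place of sums, Gata3 was higher in HE in 3 of 4 sets. The exception was the Runx1b line, with means of 466.8 CPM in Endo and 97.6 CPM in HE. That Endo mean rests on 1 cell at 24390 CPM, which had under 50000 reads. In so shallow a cell a few reads give a high CPM, so it is not evidence of high Gata3. Over the series, Gata3 reached at most 734.8 CPM in endothelial-gene positive cells. It reached at most 1037.6 CPM in the other cells with at least 50000 reads. The median Endo cell of the Runx1b line with Gata3 reads had 8.02 CPM. Without the cell with the most reads, Ret, Isl1, Hand2 and Gata3 were each higher in HE in 4 of 4 sets. For Hand2, with 0 reads in all 4 Endo sums, no other direction was possible. Depth limits the sparse genes, as with Dbh, whose 0 reads give a limit of 0.00287 CPM over the series.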

Other observations

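Adrenergic receptor genes, the targets of noradrenaline, were mostly near 0, with an exception in Adra2b. It stood at 175.5 CPM in IAHC at E11.5 (13 of 22 cells), 83.7 CPM in HE of the Gfi1 line at E10.5 (17 cells), 41.9 CPM in HE of the Runx1b line (29 cells) and 20.6 CPM in Mes cells of Runx1b:RFP/WT (11 cells), and at most 4.18 CPM in other groups. Erythroid genes were highest in the same 4 groups, at 479155, 145306, 89044.5 and 63856 CPM, and their part in the result was not tested.

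Ligands and co-receptors of Ret were sparse. Gdnf, the ligand of Ret with Gfra1, was read in 7 cells of the series. Nrtn, the ligand neurturin, stood at 50.2 CPM in IAHC at E11.5 (9 of 22 cells). Gfra2, which binds neurturin, stood at 42.8 CPM in ACE+ GFI1+ cells (23 of 39 cells). Gfra1 stood at 21.2 CPM in HE of the Gfi1/Gfi1b knockout (9 of 42 cells) and 0.117 CPM in the controls (1 of 95 cells), with 1 sample a group and no test. Ednrb, the endothelin receptor of migrating neural crest, was read in 23.5% of cells at 59.95 CPM. The genes above were chosen after their values were seen.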
